A study of Homo sapiens with 6 samples.

Results

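The genes described here encode the 9-1-1 clamp and the ATR checkpoint pathway, and they were followed in H146 cells, an established small-cell lung cancer (SCLC) line, after KIFC1 knockdown. They are 10 of the 28395 genes in the count table, namely *RAD1*, *RAD9A*, *HUS1*, *RAD17*, *TOPBP1*, *ATR*, *ATRIP*, *CHEK1*, *CLSPN* and *TIMELESS*. *RAD1* was taken because it had already been seen to fall in these same libraries, with an adjusted p under 0.05, and the other 9 were taken for their roles beside it. The values of *RAD1* are therefore a description, and the question put to the data was whether its fall was shared. RNA was collected on day 2 after transient lipid transfection of genotype WT cells with a scrambled negative control siRNA or with a KIFC1 siRNA, with 3 libraries labelled as biological replicates in each group. The knockdown libraries bear the name KD_2. The study used a pair of KIFC1 siRNAs, and the labels do not say which reagent this was, so 1 siRNA stands for KIFC1 knockdown in all that follows. All libraries come from 1 cell line, and in such bulk RNA fewer cells of a kind and less RNA per cell cannot be told apart.

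When a replication fork stalls or a DNA end is trimmed, single-stranded DNA becomes coated with RPA, and ATR is brought to it by its partner ATRIP. The ring formed by RAD9A, RAD1 and HUS1 is placed at the junction of single- and double-stranded DNA by the RAD17 clamp loader. TOPBP1 binds the tail of RAD9A in that ring and activates ATR, which phosphorylates the kinase CHEK1 with the help of CLSPN (claspin) and TIMELESS. CHEK1 then holds back cell division and new origin firing. SCLC cells typically lack p53 and RB1 and are known for high replication stress, so this pathway is studied as a drug target in the disease.

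Total counts ran from 15392374 to 17754458 per library, and 19437 to 20472 genes per library had at least 1 count. Mitochondrial genes took 8.34% to 13.1% of the counts. Of the neuroendocrine markers, *INSM1* had 10009 to 12809 counts and *SYP* 1572 to 2523, while *NEUROD1* had 0 to 5, and the surfactant gene *SFTPC* had at most 1. *KIFC1*, the targeted gene (GRCh38, chromosome 6, 33391461 to 33409896), encodes a minus-end-directed mitotic kinesin. Its control libraries held 14, 4 and 14 counts, against 1, 1 and 0 in the KIFC1 siRNA libraries. Its control mean was 3.23-fold above a floor of 3 counts per KIFC1 siRNA library. That ratio allows for counting error in the KIFC1 siRNA libraries only, not in the few control counts. All of the words of 32 bases within the exons of *KIFC1* also occur on alternate sequences of GRCh38.

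*RAD1* (NCBI gene ID 5810) lies on the minus strand of chromosome 5 from 34905260 to 34915504. Its only copy of the sequence word GAGATCT lies in the last of its 6 exons, 1017 bases into the 3′ UTR. That word is shown because it occurs once in the *KIFC1* mRNA and was found earlier, by scanning these same libraries, to be frequent in genes that fell. The sites in the GENCODE 44 canonical transcripts, with the word in capitals and 10 bases on each side, read 5′ to 3′ as follows.
RAD1, 3′ UTR, chr5:34907742-34907748, minus strand: accttttgaaGAGATCTatgaatggga
KIFC1, coding sequence, chr6:33405482-33405488, plus strand: aagctacgtaGAGATCTacaatgagac
CHEK1, coding sequence, chr11:125627704-125627710, plus strand: tattaagaaaGAGATCTgtatcaataa
The coordinates are those of the word in GRCh38. Outside the word, *RAD1* shared 7 of 20 bases with *KIFC1* and *CHEK1* shared 6, and the unbroken stretch around the word was 9 bases for *RAD1* and 8 for *CHEK1*. The mRNAs of the other 8 genes had 0 copies.

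*RAD1* was lower in every KIFC1 siRNA library than in any control library. In CPM, counts scaled to the TMM-adjusted library size, it had 73.8, 72.8 and 76.2 with control siRNA and 52.7, 38.7 and 50.1 with KIFC1 siRNA. The control libraries lay close together and the KIFC1 siRNA libraries were spread, with replicate 2 the lowest. The means were 74.3 ± 1.73 and 47.2 ± 7.43 CPM (SD, n = 3 in each group), a log2 fold change of -0.65 (standard error 0.13, 95% interval -0.93 to -0.38), or 63.5% of the control level. In edgeR's quasi-likelihood test, adjusted by Benjamini-Hochberg over 14776 genes, it had an adjusted p of 0.0426, which is among the values by which *RAD1* was chosen and stands close to the threshold of 0.05. Without KIFC1 siRNA replicate 3 it was 0.00550, and without any other single library it exceeded 0.05. Those edgeR values were 0.146, 0.178 and 0.255 without control siRNA replicates 1, 2 and 3, and 0.0692 and 0.0695 without KIFC1 siRNA replicates 1 and 2. The log2 fold change in these 6 fits stayed between -0.74 and -0.54. A block on the replicate number gave an adjusted p of 4.63e-05 in edgeR and a log2 fold change of -0.66.

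**Figure D1:**
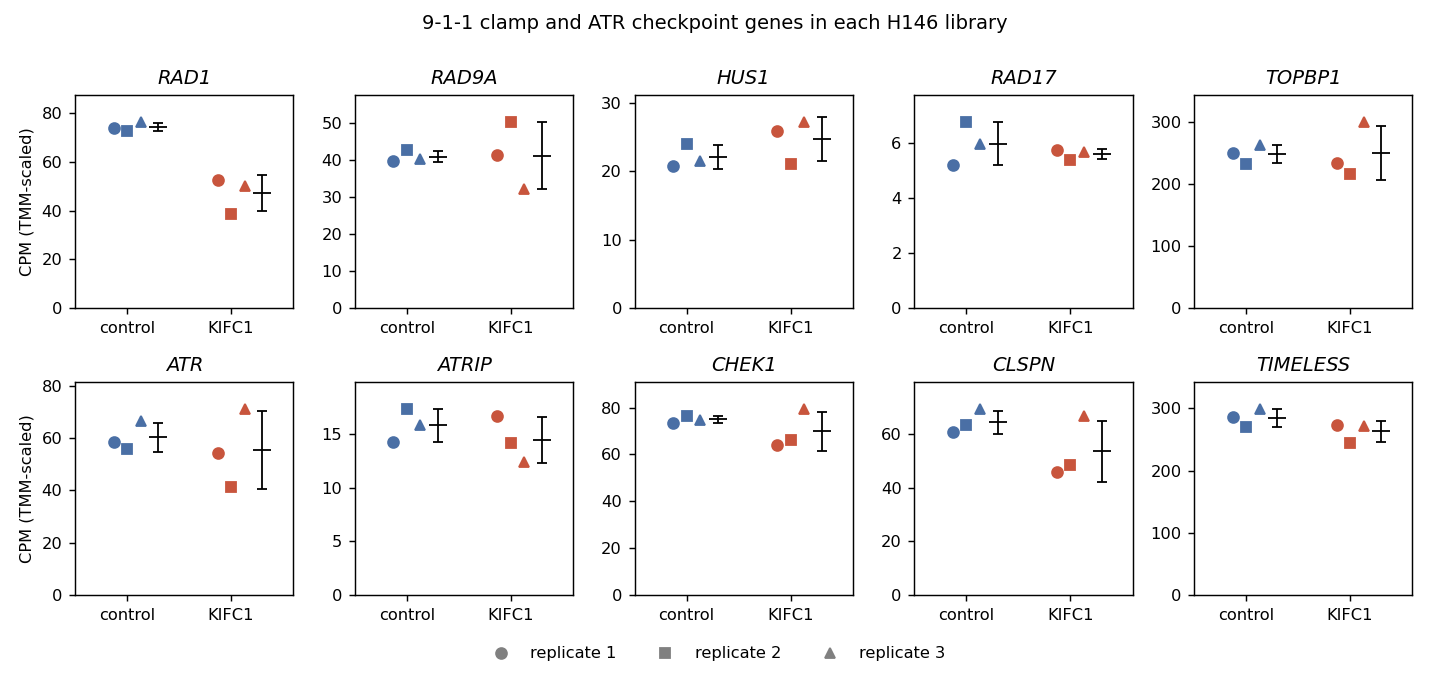
Expression of the 10 genes in each library, in CPM on TMM-scaled libraries (vertical axes, from 0), with control siRNA in blue and KIFC1 siRNA in red; marker shapes give the replicate number, and black bars give the mean and SD of 3 libraries. The ranges of *RAD1* are apart, from 72.8 to 76.2 against 38.7 to 52.7, and those of the other 9 genes overlap.

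The fall was not seen in the other genes at this precision. By edgeR's quasi-likelihood test, 1 of the 10 genes, *RAD1*, was called lower (adjusted p under 0.05), where 0.379% of all genes tested were, and 0 were called higher, against 0.332% of all genes. All 10 passed the filter on low counts. Since *RAD1* was picked from this comparison, its call carries no information about the group. Among the other 9, 0 had an adjusted p under 0.05 and 0 an unadjusted p under 0.05 in edgeR. The same held with DESeq2 and with limma-voom. These fits did not pair the libraries. With the replicate number as a block, edgeR gave 0 of the 9 an adjusted p under 0.05. It gave 1, *CLSPN*, an unadjusted p under 0.05 (0.00797, lower), where 9.2% of all genes were lower with one. Without the block, the log2 fold changes of the 9 ran from -0.26 to 0.16, with 6 below zero and 3 above and a median of -0.10. Over all genes tested the median was 0.01 and the quartiles were -0.12 and 0.13. *RAD1* was also the only one of the 10 whose libraries did not overlap between the groups with KIFC1 siRNA lower, which 7.51% of all genes tested showed. Without the block, the 95% interval of each of the other 9 genes included zero, and with it that of *CLSPN* did not. Each interval excluded the -0.65 of *RAD1*. That value belongs to the fall for which *RAD1* was chosen, so this does not show that a smaller fall was absent. Set against the interval of *RAD1* itself, 5 of the 9 intervals without the block lay apart from it. Those of *RAD17*, *ATR*, *ATRIP* and *CLSPN* met it.

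**Figure D2:**
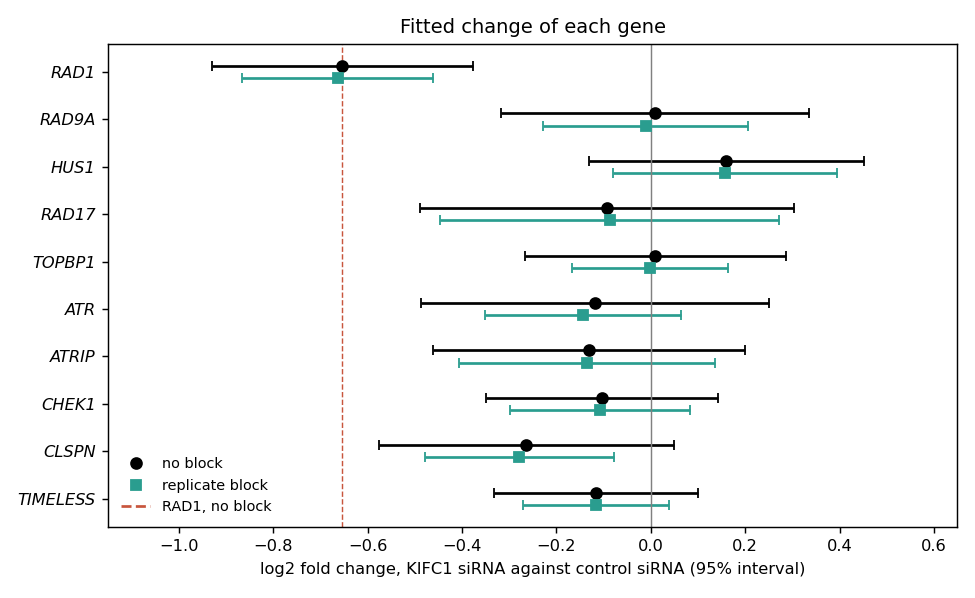
Log2 fold change, KIFC1 siRNA against control siRNA, with 95% intervals from edgeR's quasi-likelihood fit without a block (black circles) and with the replicate number as a block (green squares); the dashed line marks *RAD1* at -0.65. No interval of the other 9 genes reaches that line, which marks the fall for which *RAD1* was chosen. With the block the interval of *CLSPN* lies below zero, from -0.48 to -0.08.

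The other subunits of the clamp were not lower in the KIFC1 siRNA means. *RAD9A* (chromosome 11, 67391986 to 67398412) encodes the subunit whose tail holds TOPBP1. It had 39.8, 42.6 and 40.2 CPM with control siRNA and 41.3, 50.1 and 32.1 with KIFC1 siRNA. In the KIFC1 siRNA group replicate 1 lay among the controls, replicate 2 above and replicate 3 below them. Replicate 2, the lowest for *RAD1*, was the highest for *RAD9A*. The log2 fold change of *RAD9A* was 0.01 (95% interval -0.32 to 0.33), with a sign that changed between settings. The end of *RAD9A* overlaps *PPP1CA*, a phosphatase gene at 277.0 ± 22.8 CPM with control siRNA (SD, n = 3), whose log2 fold change was 0.01. *HUS1* (chromosome 7, 47963288 to 47979615), the remaining subunit, had 20.8, 24.0 and 21.5 CPM with control siRNA and 25.9, 21.1 and 27.1 with KIFC1 siRNA. Replicates 1 and 3 of KIFC1 siRNA were above every control library and replicate 2 was among them. Its log2 fold change was 0.16 (95% interval -0.13 to 0.45, adjusted p = 0.814 in edgeR).

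Relative to its partners, *RAD1* was lower in each pair of libraries with the same replicate number. The log2 ratio of *RAD1* to *HUS1* CPM averaged 1.75 ± 0.13 in control libraries and 0.93 ± 0.08 in KIFC1 siRNA libraries (SD, n = 3). That of *RAD1* to *RAD9A* averaged 0.86 ± 0.08 and 0.21 ± 0.52, the larger SD coming with KIFC1 siRNA replicate 2 at -0.37. Per kilobase of canonical transcript, there was 0.840 of *RAD1* for 1 of *RAD9A* with control siRNA and 0.530 with KIFC1 siRNA. For 1 of *HUS1* there was 2.24 of *RAD1* with control siRNA and 1.27 with KIFC1 siRNA. Over all 9 partners the log2 ratio was lower by 0.38 (*CLSPN*) to 0.82 (*HUS1*), and for 8 of them the libraries of the groups did not overlap. The same was so for the ratio of *RAD1* to 76.6% of all other genes tested, so the count shows nothing particular to these partners. These ratios contain the value for which *RAD1* was chosen, so they were not tested.

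**Figure D3:**
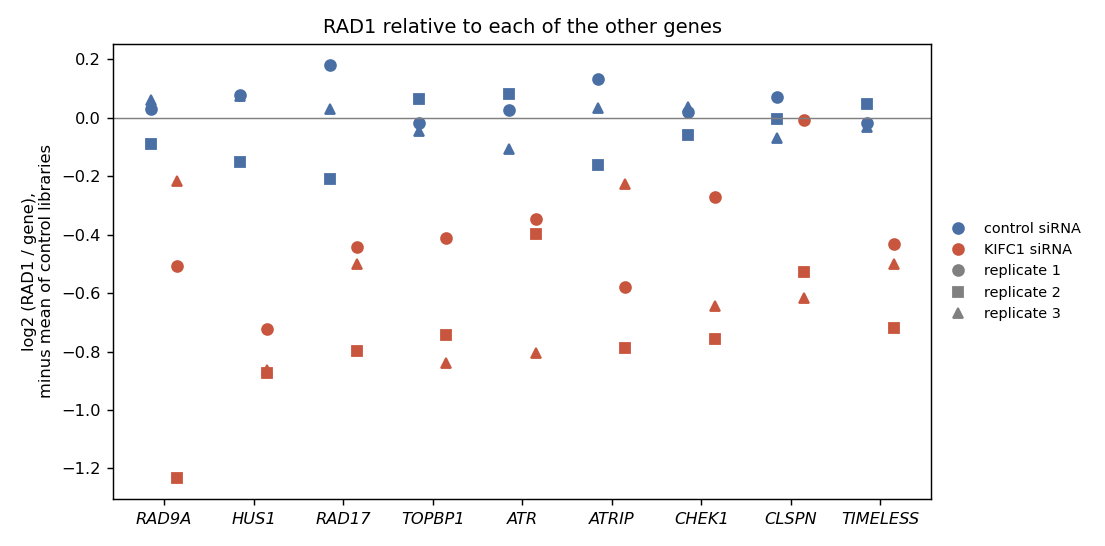
Log2 ratio of *RAD1* CPM to that of each other gene in each library, after subtracting the mean of the control libraries (vertical axis), with control siRNA in blue and KIFC1 siRNA in red and marker shapes for replicates. Every KIFC1 siRNA library lies below the control libraries for each gene except *CLSPN*, for which KIFC1 siRNA replicate 1 lies among them, and the same separation was seen against 76.6% of all other genes tested.

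*RAD17* (chromosome 5, 69369293 to 69414801), which loads the clamp, was the lowest of the 10 genes, with 87, 108 and 110 counts under control siRNA and 90, 82 and 93 under KIFC1 siRNA. The groups overlapped, and the log2 fold change was -0.09 (95% interval -0.49 to 0.30), the widest interval of the 10. Of the 32-base words within its exons, 97.7% also occur on 1 of the 261 alternate sequences of GRCh38. For the other 9 genes that share was at most 6.87%. *TAF9* and *AK6*, which overlap the first bases of *RAD17* and whose words all occur on alternate sequences, had 0 counts in all 6 libraries. *TAF9* encodes a general transcription factor subunit that dividing cells use. How reads that align to several places were counted is not given in the sources used here, and its part in the low *RAD17* level was not tested.

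*TOPBP1* (chromosome 3, 133600238 to 133661941), the activator of ATR, had 249.9, 233.0 and 262.8 CPM with control siRNA and 234.2, 216.6 and 299.7 with KIFC1 siRNA. In the KIFC1 siRNA group replicate 1 lay among the controls, replicate 2 below and replicate 3 above them. Its log2 fold change was 0.01 (95% interval -0.27 to 0.29), with a sign that changed between settings. *ATR* (chromosome 3, 142449235 to 142578733), the sensor kinase, had 58.6, 55.7 and 66.3 CPM with control siRNA and 54.2, 41.2 and 70.9 with KIFC1 siRNA. Its KIFC1 siRNA libraries held both the lowest and the highest value. Its log2 fold change was -0.12 (95% interval -0.49 to 0.25), and 0.049 without KIFC1 siRNA replicate 2.

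*ATRIP* (chromosome 3, 48446737 to 48467645), which carries ATR to RPA-coated DNA, had 14.3, 17.3 and 15.8 CPM with control siRNA and 16.7, 14.2 and 12.4 with KIFC1 siRNA. The groups overlapped, and the log2 fold change was -0.13 (95% interval -0.46 to 0.20). Its 3′ end overlaps *TREX1*, a DNA exonuclease gene on the same strand, which had 8.92 ± 1.32 CPM with control siRNA and 11.2 ± 2.41 with KIFC1 siRNA (SD, n = 3), a log2 fold change of 0.33 (adjusted p = 0.677, edgeR). Reads in the shared stretch cannot be assigned to one of them from these counts.

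*CHEK1* (chromosome 11, 125625136 to 125681124), the effector kinase, had 73.5, 76.6 and 74.9 CPM with control siRNA and 64.1, 66.1 and 79.2 with KIFC1 siRNA. Replicates 1 and 2 of KIFC1 siRNA were below every control library, and replicate 3 was above them. The log2 fold change was -0.10 (95% interval -0.35 to 0.14, adjusted p = 0.879 in edgeR).

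*CLSPN* (chromosome 1, 35720213 to 35769978), which bridges ATR and CHEK1, had the lowest log2 fold change after *RAD1*. It had 60.9, 63.2 and 69.2 CPM with control siRNA and 45.9, 48.4 and 66.7 with KIFC1 siRNA. Replicates 1 and 2 of KIFC1 siRNA lay below every control library, and replicate 3 lay among them. Its log2 fold change was -0.26 (95% interval -0.58 to 0.05, standard error 0.14), with an adjusted p of 0.652 in edgeR. Between libraries with the same replicate number the log2 differences were -0.41, -0.39 and -0.05. Blocking on the replicate number gave an adjusted p of 0.0982 and an unadjusted p of 0.00797 in edgeR, and *RAD1* was again the only gene of the 10 called, where 3.06% of all genes were called lower. Without KIFC1 siRNA replicate 3, *CLSPN* had a log2 fold change of -0.45 and an adjusted p of 0.0230 in edgeR, which made 2 of the 10 genes called lower against 1.83% of all genes.

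*TIMELESS* (chromosome 12, 56416363 to 56449426) protects stalled forks and aids CHEK1 activation. It had 286.7, 270.2 and 298.4 CPM with control siRNA and 272.7, 244.3 and 272.1 with KIFC1 siRNA. It was lower in each of the 3 pairs of libraries with the same replicate number, by small amounts, and the groups overlapped. The log2 fold change was -0.12 (95% interval -0.33 to 0.10, adjusted p = 0.817 in edgeR).

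Per kilobase of canonical transcript, the order of the control levels was led by *TIMELESS* at 55.3 ± 2.75 and *TOPBP1* at 43.1 ± 2.59 CPM per kilobase (SD, n = 3). Then came *RAD9A* at 19.6 ± 0.732, *CHEK1* at 18.2 ± 0.376 and *RAD1* at 16.5 ± 0.383, whose ranges over libraries did not meet. *CLSPN*, *ATR* and *HUS1* followed at 7.57 ± 0.503, 7.38 ± 0.675 and 7.35 ± 0.571, with ranges that overlapped. *ATRIP* at 3.45 ± 0.327 and *RAD17* at 1.96 ± 0.252 were the lowest. With KIFC1 siRNA *RAD1* was at 10.5 ± 1.65 CPM per kilobase and kept the fifth place, while *HUS1* stood at 8.21 ± 1.06. Lengths are those of the GENCODE 44 canonical transcripts, and the isoforms in use were not measured.

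Of the tested genes within 100 kb of *RAD1*, 0 were called in edgeR. *BRIX1*, a ribosome assembly gene, starts 207 bases away on the other strand, so that both genes are transcribed away from each other. It had 75.9, 69.2 and 64.2 CPM with control siRNA and 88.5, 80.1 and 85.2 with KIFC1 siRNA. All 3 KIFC1 siRNA libraries were above the controls, and the log2 fold change was 0.28 (95% interval 0.04 to 0.51, unadjusted p = 0.0246 and adjusted p = 0.414 in edgeR). Of all genes tested, 4.71% were higher with an unadjusted p under 0.05 in edgeR. Groups apart with KIFC1 siRNA lower were seen for 7.51%, and the share apart with it higher was not counted. *DNAJC21* averaged 61.4 ± 1.11 CPM with control siRNA and 61.4 ± 8.89 with KIFC1 siRNA (SD, n = 3). *RAI14* had a log2 fold change of -0.14 (95% interval -0.45 to 0.18, adjusted p = 0.871 in edgeR). *TTC23L*, whose annotated span covers *RAD1*, had 14 to 16 counts with control siRNA and 17 to 28 with KIFC1 siRNA. Its KIFC1 siRNA libraries were also above the controls in CPM, at these low counts. Its log2 fold change was 0.73 (95% interval 0.04 to 1.42, unadjusted p = 0.0409 and adjusted p = 0.503 in edgeR). *AGXT2* had at most 2 counts and was not tested.

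**Figure D4:**
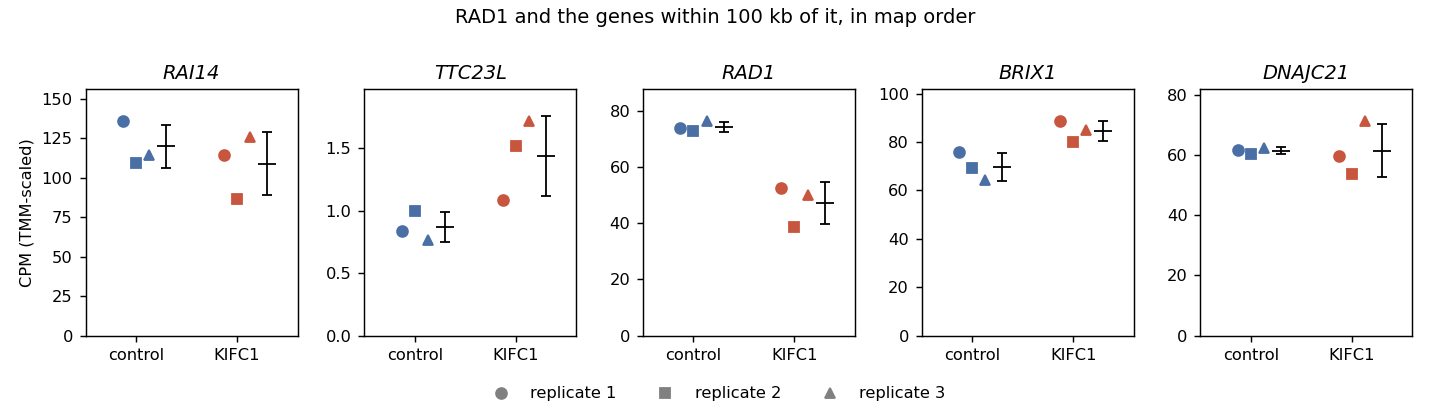
CPM on TMM-scaled libraries (vertical axes, from 0) of *RAD1* and of the 4 tested genes within 100 kb of it, in map order, with control siRNA in blue, KIFC1 siRNA in red, marker shapes for replicates and black bars for mean and SD of 3 libraries. *BRIX1*, next to *RAD1*, has its KIFC1 siRNA libraries at 80.1 to 88.5, above its controls at 64.2 to 75.9. The libraries of *TTC23L* are also apart in this direction, at low counts. The share of all genes apart in this direction was not counted.

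The rest of the pathway was read from 8 lists with 87 genes, of which 86 passed the filter on low counts. By edgeR's quasi-likelihood test 0 of the 86 had an adjusted p under 0.05. An unadjusted p under 0.05 was found for 2 lower and 2 higher genes, where 4.53% and 4.71% of all genes had one. With the replicate number as a block there were 13, of which 10 were lower and 3 higher, where 9.2% and 8.51% of all genes were. DESeq2 called 1 of the 86, where it called 148 lower and 126 higher of all 14776 genes, and limma-voom called 0. The median log2 fold change of the 86 was -0.02, with 37 above zero and 49 below.

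The partners of the clamp and its loader (RFC2 to RFC5, RHNO1 and RAD9B) had a median of 0.02, with 0 of 6 called. *HUS1B*, also in that list, did not pass the filter. *RFC3*, a subunit of the clamp loader, had the smallest unadjusted p of the list, at 143.8 ± 9.77 CPM with control siRNA and 172.4 ± 16.2 with KIFC1 siRNA (SD, n = 3), a log2 fold change of 0.26 (adjusted p = 0.475, edgeR). *PCNA* and the other clamp loaders had a median of -0.09 (0 of 6 called). RPA and the genes of ATR activation had a median of 0.05 (0 of 9), and the targets of CHEK1 with the cyclin-dependent kinases -0.02 (0 of 11). The parallel ATM branch, which answers to double-strand breaks, had a median of -0.06 (0 of 10). Translesion synthesis genes had a median of 0.04 (0 of 10), with *UBE2B*, an enzyme of PCNA ubiquitination, at 0.29 (adjusted p = 0.471 in edgeR).

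Fork protection and recombination genes had a median of -0.06 (0 of 13 called) and held the lowest value of the lists. *HLTF*, which reverses stalled forks, had 137.7, 130.4 and 141.8 CPM with control siRNA and 99.8, 82.9 and 108.9 with KIFC1 siRNA. The groups did not overlap, and edgeR gave a log2 fold change of -0.49 (95% interval -0.75 to -0.23) and an adjusted p of 0.102. It was the gene that DESeq2 called, and blocking on the replicate number gave it an adjusted p of 0.000326 in edgeR. The S phase genes had a median of -0.04 (0 of 21 called), with *GINS4*, of the replicative helicase, at -0.28 (adjusted p = 0.503 in edgeR). With the block, the proliferation marker *MKI67*, named after its value was seen, was the only other listed gene called (log2 fold change -0.33, adjusted p = 0.00930 in edgeR). That made 2 of the 86 listed genes called lower with the block, where 3.06% of all genes were.

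The word GAGATCT was then counted in the 12969 tested genes whose annotated 3′ UTR spans 50 bases or more. It was present in 1163 of these 3′ UTRs (8.97%), and *RAD1* was the only one of the 10 genes among them. *CLSPN*, with the lowest log2 fold change after *RAD1*, was not. *HLTF*, *GINS4* and *MKI67* were also among them, and *RFC3*, *UBE2B* and *BRIX1* were not. All of these but *BRIX1* had been named for their values in the same libraries, so that split carries no information about the word. The genes with the word in the 3′ UTR had a median log2 fold change of -0.11, and 68.5% were below zero. Genes with the word only elsewhere in the mRNA, such as *CHEK1*, had a median of -0.05, and genes without it 0.03. At or below the value of *RAD1* lay 4.47% of the first class, which holds *RAD1* itself. The share was 0.777% with the word only elsewhere and 0.750% without it. The classes differed in 3′ UTR length, with medians of 3420 and 1201 bases, and *RAD1* has 3505. Within 3′ UTRs of 3000 to 4000 bases, the median was -0.13 in 195 genes with the word and -0.02 in 927 without it. The word came from these libraries, so these values are not independent evidence, and its part in the fall of *RAD1* was not tested.

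**Figure D5:**
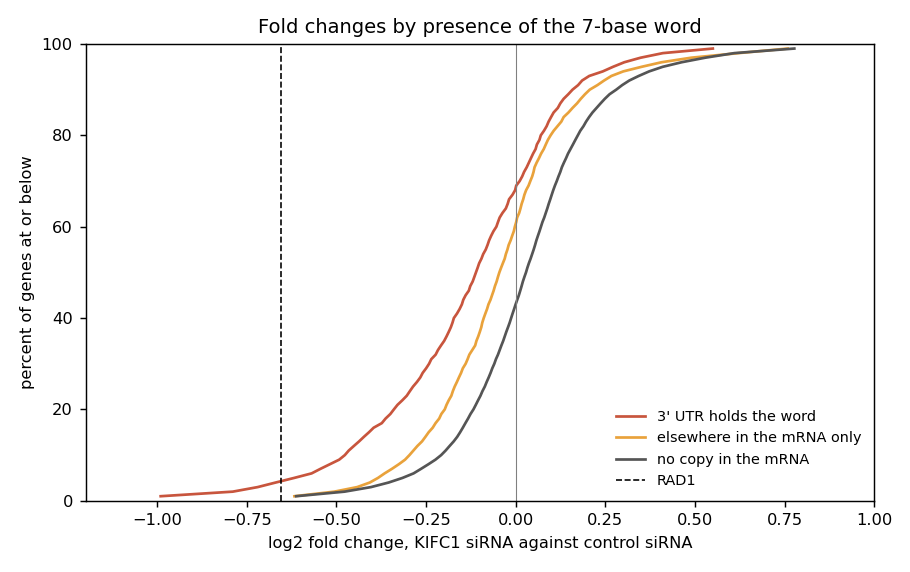
Percent of genes (vertical axis) at or below each log2 fold change, KIFC1 siRNA against control siRNA (horizontal axis), for 1163 genes with the 7-base word in the 3′ UTR, 1673 with it elsewhere in the mRNA only and 10133 without it; the dashed line marks *RAD1*. The curve of the first class lies to the left, with a median of -0.11 against 0.03 without the word.

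The genes whose log2 CPM followed that of *RAD1* most closely over the 6 libraries, among 11757 genes with a mean log2 CPM of at least 2, were *CEP89*, *SH3KBP1*, *EPB41L4B*, *NMNAT3* and *PRC1*, with Pearson's r of 0.990 to 0.999. Their log2 fold changes ran from -0.54 (*SH3KBP1*) to -0.15 (*NMNAT3*). Of the other 9 pathway genes, *TIMELESS* was the closest at 0.853 and *RAD9A* the farthest at -0.25. After the group means were removed, the nearest genes were *CEP89*, *HMGXB3*, *DUSP4*, *NEDD4L* and *WARS2*, with r of 0.988 or more, *TIMELESS* was at 0.851 and *RAD9A* at -0.73. These are correlations over 6 libraries that share a group difference and, by number, their replicates, and they are given as a description.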

How the data were processed

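Per the submitters' processing notes, reads were aligned to GRCh38 with HISAT2 2.2.1 and counted per gene with featureCounts 2.0.8. The authors deposited whole counts for 28395 genes by NCBI gene ID, not normalized; the annotation, strand setting and handling of multiply aligned reads are not given in the sources used here. RefSeq (GRCh38.p14) paired 27745 IDs with symbols, and all 10 genes matched; the 650 others held 0.0618% of counts.

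All 6 libraries entered 1 fit without covariates in edgeR 4.0.16 (R 4.3.3), after filterByExpr and TMM scaling, with robust quasi-likelihood tests. P-values of 14776 genes were adjusted by Benjamini-Hochberg, with a threshold of 0.05. The study used DESeq2, applied here (1.42.0) as an alternative, as was limma-voom (limma 3.58.1). A standard error is the size of the fold change (log2) over the root of its F statistic. The fit was tested on simulated data. The biological coefficient of variation was 13.1%, and 8.63% with the replicate number as a block. P-values measure the spread between libraries labelled biological replicates; nothing says how the cultures were separated.

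Same-numbered libraries of the groups correlated at 0.484, 0.414 and 0.491 across 11758 genes after group means were removed. Differently numbered ones lay at -0.457 to 0.0234. Removing the means ties these values together, so the low ones are not separate evidence of pairing. The labels give only a replicate number, and the block rests on taking the numbers to pair the libraries.

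The genes and lists were chosen with earlier results of these data known. Listed genes were named if called, or else as the 2 smallest unadjusted p under 0.05 of their list, and so were all tested genes within 100 kb of *RAD1* and the 5 genes most correlated with it. Word counts used GENCODE 44. Protein sequences were not used here. Python 3.11.15 with pandas 2.3.3 and matplotlib 3.10.9 made the tables and figures.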

Additional observations from a re-analysis of the deposited data

How the results depend on the processing

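The 13 alternatives were 7 other settings and 6 fits with 1 library left out. *RAD1* stayed below zero in all of them, from -0.67 to -0.65 in the 7 settings, where its call held, and from -0.74 to -0.54 with 1 library left out, where it held only without KIFC1 siRNA replicate 3. The number of the 10 genes called lower then ran from 0 to 2. Over all genes, 56 were lower and 49 higher; DESeq2's Wald test gave 148 and 126, no filter on low counts 144 and 121, and the replicate block, which pairs same-numbered libraries, 452 and 402. With 1 library left out, 15 to 274 genes were lower and 9 to 194 higher. Of the listed pathway genes 0 were called, and 1 with DESeq2, 1 without a filter, 2 with the replicate block and 0 to 2 with 1 library left out. The replicate block changed no call among the 10 genes.

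Values near zero changed sign. *RAD9A* was at -0.0055 with library size only, -0.015 with limma-voom, -0.0024 without a filter, -0.011 with the replicate block, and -0.16 to 0.16 with 1 library left out. *TOPBP1* was at -0.0050 with library size only, -0.0030 with limma-voom, -0.0025 with the replicate block and -0.14 to 0.10 with 1 library left out. *ATR* ran from -0.34 to 0.049 with 1 library left out. *CLSPN* ran from -0.45 to -0.16 there. The causes were not tested. *RAD17*, with the fewest counts of the 10 genes, had the widest interval.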
